A study of Drosophila melanogaster with 23 samples.

Results

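Whole first-instar (L1) Drosophila larvae whose replacement histone H3.3 carries arginine in place of lysine 36, labelled H3.3K36RH3.2HWT and called H3.3K36R here, were compared with the matched histone control, labelled H3.3CtrlH3.2HWT. The comparison took the 4 H3.3K36R and the 4 control libraries by their titles, 8 of the 23 libraries of the series, and the genes that passed a count filter, 14365 of the 17606 genes in the deposited table. Both genotypes carry the element labelled H3.2HWT, and the labels do not spell out the alleles behind HWT or H3.3Ctrl. The other genotypes used below are the combined mutant H3.3K36RH3.2K36R, in which replication-coupled H3.2 also carries the substitution, H3.3CtrlH4K16R, which has the control H3.3 and a substitution in histone H4, the Set2 mutant labelled Set21, and the yw stock. There were 4 libraries of each of these except yw, which had 3. Each library was total RNA from a pool of 25 to 30 larvae of both sexes, from crosses kept at 25 °C, sequenced as paired reads of 100 bases. The labels do not say whether the replicate pools came from separate crosses, so p-values measure the spread between pools, which may be partly technical. The gene-by-gene tests took that spread from all 23 libraries. Their p-values and SEs therefore also carry the spread within the other genotypes. The series names the question behind the design, how Set2 and lysine 36 of H3 act on the male X chromosome, and describes the controls as matched for genetic background.

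H3.3 is the variant of histone H3 that is deposited outside replication, mostly over transcribed genes and their enhancers, whereas H3.2 is deposited as DNA is copied. Lysine 36 of H3 is methylated over gene bodies, with Set2 adding the trimethyl form behind RNA polymerase II, and the chromodomain protein msl-3 of the male-specific lethal (MSL) complex binds that form on the male X. In flies that complex, together with the roX1 and roX2 RNAs, raises transcription of the single male X.

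The H3.3K36R libraries held between 111138070 and 139066678 counts and the control libraries between 115680771 and 156376364. The mitochondrial share of counts was 1.52% to 1.87% in H3.3K36R larvae and 1.54% to 2.25% in control larvae. The main axis of spread within genotypes held 33.1% of the within-group variance. In replicate order its scores were 42.8, -1.60, -56.2 and -38.8 in H3.3K36R libraries. Control libraries had 46.6, 34.3, -42.1 and 14.9, so the groups overlapped on it. Projected on the same axis, Set2 libraries scored -55.5 to -49.2 and yw libraries 2.14 to 7.06. At these depths a small-count oddity was visible: of counts from 5 to below 20, 62.9% were even, against 49.96% of counts of 1000 or more.

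Few genes passed the adjusted test between H3.3K36R larvae and the control, though 2914 of 14365 had an unadjusted p under 0.05 (edgeR). In all, 136 genes were higher and 146 lower at an adjusted p under 0.05 in edgeR's quasi-likelihood test, which is 1.96% of the genes tested, 0.947% higher and 1.02% lower. Changes of at least 2-fold were found for 45 of the higher and 67 of the lower genes, 0.78% of all tested. The 4 H3.3K36R libraries lay wholly above or wholly below the 4 control libraries for 271 of the 282 called genes, and for 11% of all tested genes. The median log2 fold change over all genes was 0.03. In pools of whole larvae, fewer cells of a type and less RNA per cell cannot be told apart, and this holds for each result below. Protein-coding genes made up 254 of the calls and non-coding RNA genes 23. The count itself rested on individual libraries: it ran over 156 to 458 when single libraries were left out, lowest without control replicate 1 and highest without H3.3K36R replicate 1. In the 17 alternative analyses together 119 genes kept their call each time, 47 of them higher and 72 lower, and no called gene changed direction in any.

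**Figure D1:**
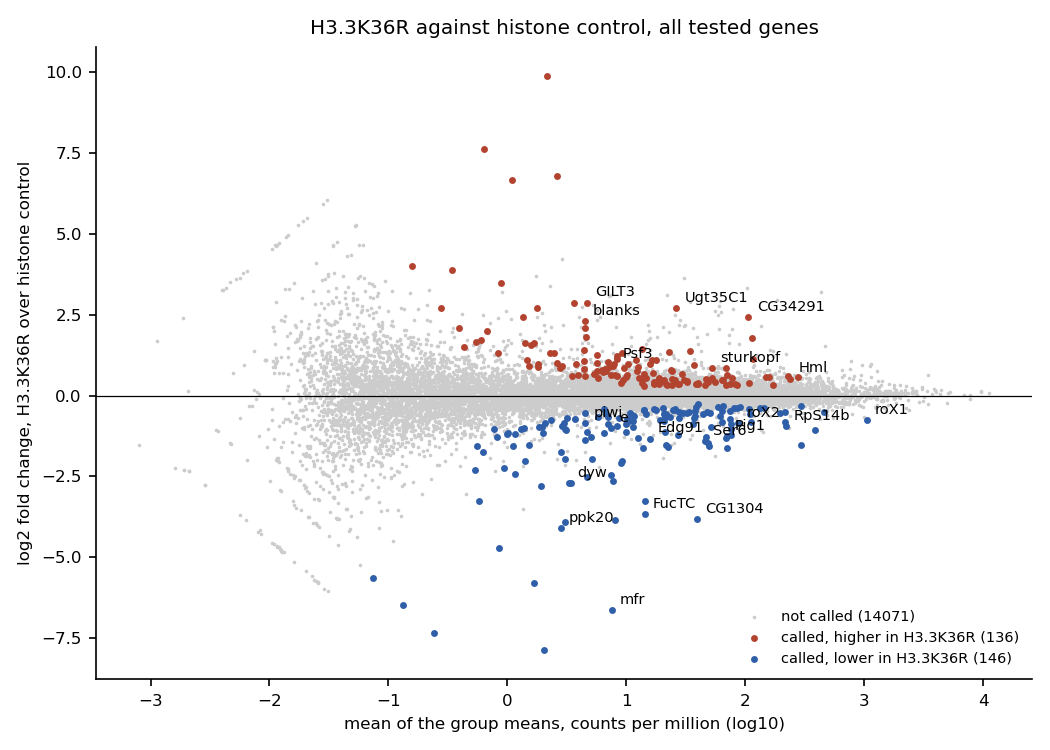
Log2 fold change of H3.3K36R over histone control (vertical axis) against the mean of both group means in CPM (counts per 1000000) on a log10 axis, for each tested gene with a count in these 8 libraries. Red points are the 136 genes called higher in H3.3K36R and blue points the 146 called lower; the median size of the change of called genes is 0.85, 112 of them change at least 2-fold, and mfr and FucTC below and GILT3 and Ugt35C1 above lie far from 0.

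The deepest falls included a ferlin, a fucosyltransferase and several genes of the X. The ferlin gene mfr (misfire, known for breakdown of the sperm plasma membrane after fertilization; chromosome 3L, 8905918 to 8912671, minus strand) had 0.122, 0.173, 0.103 and 0.194 CPM (counts per 1000000 of the library's normalized total) in the 4 H3.3K36R libraries, against 18.8, 15.6, 11.9 and 13.2 CPM in the control libraries. It was near absent from every H3.3K36R library and present in every control library. The fold change was -6.64 ± 0.44 on the log2 scale (SE; adjusted p = 4.44e-09). In the other genotypes mfr had 0.0887 to 0.238 CPM in combined mutants and 20.6 to 25.9 CPM in H4K16R larvae, and it had 0 to 0.0876 CPM in Set2 mutants and 0.154 to 0.297 CPM in yw, so among these stocks the level was high in the control and H4K16R larvae. Next to mfr on the same strand, TrpA1, a heat- and irritant-gated cation channel of sensory neurons, had 7.58, 6.08, 5.55 and 5.53 CPM in H3.3K36R, against 14.5, 14.5, 13.4 and 11.5 CPM in the control (log2 fold change -1.12 ± 0.11, adjusted p = 1.57e-06). Tsp66E, which overlaps mfr on the other strand, averaged 79.0 CPM in H3.3K36R and 85.0 CPM in the control and was not called (adjusted p = 0.488). All these positions are those of the BDGP6.54 annotation, matched by gene identifier.

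FucTC, a fucosyltransferase gene on the X (23008766 to 23011303, minus strand), had 2.07, 2.38, 1.88 and 1.96 CPM in H3.3K36R, against 27.5, 24.7, 27.7 and 25.3 CPM in the control. No H3.3K36R library came near a control library, and the difference was -3.67 ± 0.15 on the log2 scale (adjusted p = 3.21e-13). Its mean was 2.42 CPM in combined mutants and 21.5 CPM in H4K16R larvae, and 5.43 CPM in Set2 mutants against 32.6 CPM in yw, so it was low in each genotype that alters lysine 36 or its trimethylating enzyme. The lncRNA:CR45010, which lies within FucTC on the other strand, was lower too (log2 fold change -2.79 ± 0.21, adjusted p = 1.67e-08) but was not called in Set2 mutants. The counting strand is not given in the sources used here, and reads of such a pair cannot be told apart without it.

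Other X genes fell as well. dyw (daywake, a gene of the takeout family that limits daytime sleep in adult flies; 2692732 to 2693886, minus strand) had 0.79, 0.918, 0.826 and 0.939 CPM in H3.3K36R, against 6.41, 5.68, 5.21 and 5.31 CPM in the control, a log2 fold change of -2.7 ± 0.25 (adjusted p = 3.75e-07). The overlapping clock gene per was not called, at 4.13 CPM in H3.3K36R and 3.19 CPM in the control. The gene pair CG1304 and Ser6, the second of them named for a serine protease, lies within 3 kb of X sequence. CG1304 had 5.79, 5.4, 5.19 and 4.34 CPM in H3.3K36R, against 69.6, 83.1, 78.2 and 63.5 CPM in the control (log2 fold change -3.83 ± 0.19, adjusted p = 8.46e-12). The level in H3.3K36R was close to those of combined mutants (mean 4.33 CPM), Set2 mutants (3.91 CPM) and yw (4.39 CPM), and H4K16R larvae had 94.9 CPM. Ser6 followed the same order, with 26.2, 25.2, 23.5 and 24.9 CPM in H3.3K36R, against 51.5, 74, 83 and 56 CPM in the control and a mean of 23.4 CPM in yw. CG32572, which has no named function, had 0.478, 0.409, 0.286 and 0.343 CPM in H3.3K36R, against 5.43, 6.97, 4.58 and 5.76 CPM in the control (log2 fold change -3.91 ± 0.23, adjusted p = 2.58e-10). It was low in Set2 mutants too, at 0.37 CPM against 5.28 CPM in yw. Pig1, a pre-intermoult gene of the larval salivary gland that lies within dnc, had 41.7, 38.5, 44.3 and 41 CPM in H3.3K36R, against 79.2, 90.8, 103 and 119 CPM in the control (log2 fold change -1.24 ± 0.12, adjusted p = 7.39e-07).

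Several falls involved one copy of a pair, or a small RNA inside a host gene. RpS14b, one of 2 neighbouring X genes for the same small-subunit ribosomal protein, had 148, 144, 161 and 142 CPM in H3.3K36R, against 294, 304, 288 and 262 CPM in the control (log2 fold change -0.95 ± 0.09, adjusted p = 2.35e-07). Its neighbour RpS14a averaged 1104 CPM in H3.3K36R and 984 CPM in the control and was not called (adjusted p = 0.23). These copies are near-identical, so how the counting divided their reads is uncertain. The guide RNA snoRNA:Psi18S-1854a, which directs a pseudouridine in 18S rRNA, had 9, 9, 4 and 6 counts in the H3.3K36R libraries, against 631, 458, 334 and 334 counts in the control libraries. It lies in RpS5a, which was not called, at 1956 CPM in H3.3K36R and 1848 CPM in the control. The snoRNA was also low in combined mutants, at no more than 0.038 CPM, and had at least 1.79 CPM in each H4K16R, Set2 and yw library. asRNA:CR45600 and CG6912, whose ends overlap on the same strand of 3R, had log2 fold changes of -3.27 ± 0.15 and -0.96 ± 0.08 (adjusted p = 2.35e-12 and 7.14e-08). asRNA:CR45600 had 2.99, 3.15, 1.83 and 2.75 CPM in H3.3K36R, against 26.2, 23.8, 23.9 and 29 CPM in the control, and it had 2.24 CPM in Set2 mutants against 25.9 CPM in yw. In combined mutants it stood at 46.2 CPM, so the RNA was low with H3.3K36R alone and not with both histones substituted.

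Among called genes with a mean of at least 1 CPM in one group, 10 averaged under 0.2 CPM in the other, 5 on each side. Those nearly silent in H3.3K36R were mfr, the snoRNA, CG34138, CG42449 and CG45079. CG34138 had 0, 1, 0 and 7 counts in H3.3K36R libraries, against 464, 596, 506 and 661 counts in control libraries. Combined mutants had 2.21 to 4.01 CPM of CG34138 and yw 0 to 0.0342 CPM, so the gene was on in one genotype with the substitution and off in the other. CG42449 had at most 0.103 CPM in combined, Set2 and yw libraries and at least 0.91 CPM in H4K16R libraries. Those nearly silent in the control were mthl8, asRNA:CR45822, Cyp6t1, Sgs5 and lncRNA:CR45625. The methuselah-like receptor gene mthl8 had 607, 485, 620 and 349 counts in H3.3K36R libraries, against 0, 1, 0 and 1 counts in control libraries. It had 2 to 4.54 CPM in combined mutants, and no H4K16R, Set2 or yw library exceeded 0.0463 CPM. lncRNA:CR45625 had the same distribution, with 93, 104, 243 and 180 counts in H3.3K36R, 1, 0, 0 and 2 counts in the control, and 0.869 to 1.12 CPM in combined mutants. Sgs5, a salivary glue protein gene of late larvae, had 121, 162, 385 and 416 counts in H3.3K36R, against 4, 7, 0 and 0 counts in the control. Sgs5 reached 5.1 to 7.46 CPM in Set2 mutants and at most 0.0297 CPM in combined mutants.

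The largest rises included a group of detoxification genes. Of 34 tested UDP-glucuronosyltransferase genes, whose enzymes attach sugars to steroids, pigments and plant toxins, 6 were higher and 1 lower, where 0.947% and 1.02% of all tested genes were. The median log2 fold change of the 34 was 0.08, against 0.03 for all genes, and lay between -0.0046 and 0.10 in the alternatives. Ugt35C1 (chromosome 3R, 11126597 to 11128328, minus strand) had 51, 38.3, 49.3 and 42.8 CPM in H3.3K36R, against 8.28, 6.85, 6.65 and 6.13 CPM in the control (log2 fold change 2.7 ± 0.19, adjusted p = 7.47e-09). Its mean was 25.1 CPM in combined mutants and 10 CPM in H4K16R larvae, and 48.7 CPM in Set2 mutants against 9.73 CPM in yw. The other 5 higher members, Ugt302K1, Ugt302E1, Ugt35E2, Ugt35B1 and Ugt303A1, are neighbours on 3R between 11151026 and 11177910. Ugt302K1 had 3.27, 2.75, 3.27 and 3.07 CPM in H3.3K36R, against 0.293, 0.638, 0.581 and 0.397 CPM in the control (log2 fold change 2.69 ± 0.23, adjusted p = 8.86e-08). Ugt35E2 had 26.4, 21.7, 16.4 and 13.8 CPM in H3.3K36R, against 7.6, 10.9, 4.56 and 5.87 CPM in the control (1.44 ± 0.26, adjusted p = 0.00315; the call was lost with the 8 libraries alone). Each H3.3K36R library was above each control library for these genes. The remaining 3 rose by 0.77 to 1.56 on the log2 scale. Ugt303B3 was the member that fell, by 0.56. Since these are members of a family with similar sequences, their shares of ambiguous reads are uncertain. Among 84 tested cytochrome P450 genes, enzymes that oxidize hormones and foreign compounds, edgeR called 2, Cyp6t1 and Cyp318a1, both higher, a share near the 1.96% of all genes. Cyp318a1 lost its call in 5 of 16 alternatives, and DESeq2 called 8 of the 84, 4 each way. None of 35 glutathione S-transferase genes was called by edgeR, with 13 at an unadjusted p under 0.05 and 5 called by DESeq2, 3 of them higher and 2 lower.

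Other rises were in single genes. GILT3, a lysosomal thiol reductase of the interferon-inducible type, had 8.79, 7.75, 9.18 and 7.06 CPM in H3.3K36R, against 1.09, 1.27, 1.08 and 1.05 CPM in the control (log2 fold change 2.87 ± 0.23, adjusted p = 2.51e-08). It averaged 5.39 CPM in combined mutants and 8.04 CPM in Set2 mutants, against 0.777 CPM in yw. blanks, which encodes a double-stranded RNA binding protein needed for spermatogenesis, had 6.11, 7.28, 7.39 and 8.82 CPM in H3.3K36R, against 1.8, 1.51, 1.09 and 1.59 CPM in the control (2.31 ± 0.23, adjusted p = 9.42e-07). Combined mutants had more of it, at 27.2 CPM, and H4K16R, Set2 and yw larvae had means of 1.05, 0.675 and 0.366 CPM. CG34291 had 208, 164, 161 and 180 CPM in H3.3K36R, against 39.1, 39.6, 24.6 and 31 CPM in the control (2.41 ± 0.17, adjusted p = 6.58e-09). The control was the lowest genotype and Set2 mutants the highest: combined mutants averaged 165 CPM and H4K16R larvae 195 CPM, and Set2 mutants 619 CPM against 249 CPM in yw. Psf3, a subunit of the GINS complex of the replicative helicase, had 9.63, 10.9, 10.1 and 10.9 CPM in H3.3K36R, against 3.98, 4.46, 6.14 and 6.54 CPM in the control (0.98 ± 0.21, adjusted p = 0.0112), and the call was lost without control replicate 1 or control replicate 2. sturkopf, which encodes a lipid droplet protein, had 54.8, 60, 79.6 and 73.4 CPM in H3.3K36R, against 35.5, 37.1, 42 and 34.3 CPM in the control (0.85 ± 0.12, adjusted p = 0.000123). ND-MLRQ, a subunit of respiratory complex I, had 265, 274, 277 and 286 CPM in H3.3K36R, against 187, 181, 193 and 167 CPM in the control (0.60 ± 0.10, adjusted p = 0.00135). Without overlap between the groups, the serpin gene Spn88Eb, the tRNA methyltransferase gene Trm7-32 and the nicotinic-receptor-like gene NtR rose by 1.81, 0.87 and 1.06 on the log2 scale. The yw means of Spn88Eb and NtR (7.83 and 5.53 CPM) lay with those of H3.3K36R (7.14 and 5.96 CPM). That of Trm7-32 (9.04 CPM) lay with the control (8.82 CPM).

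**Figure D2:**
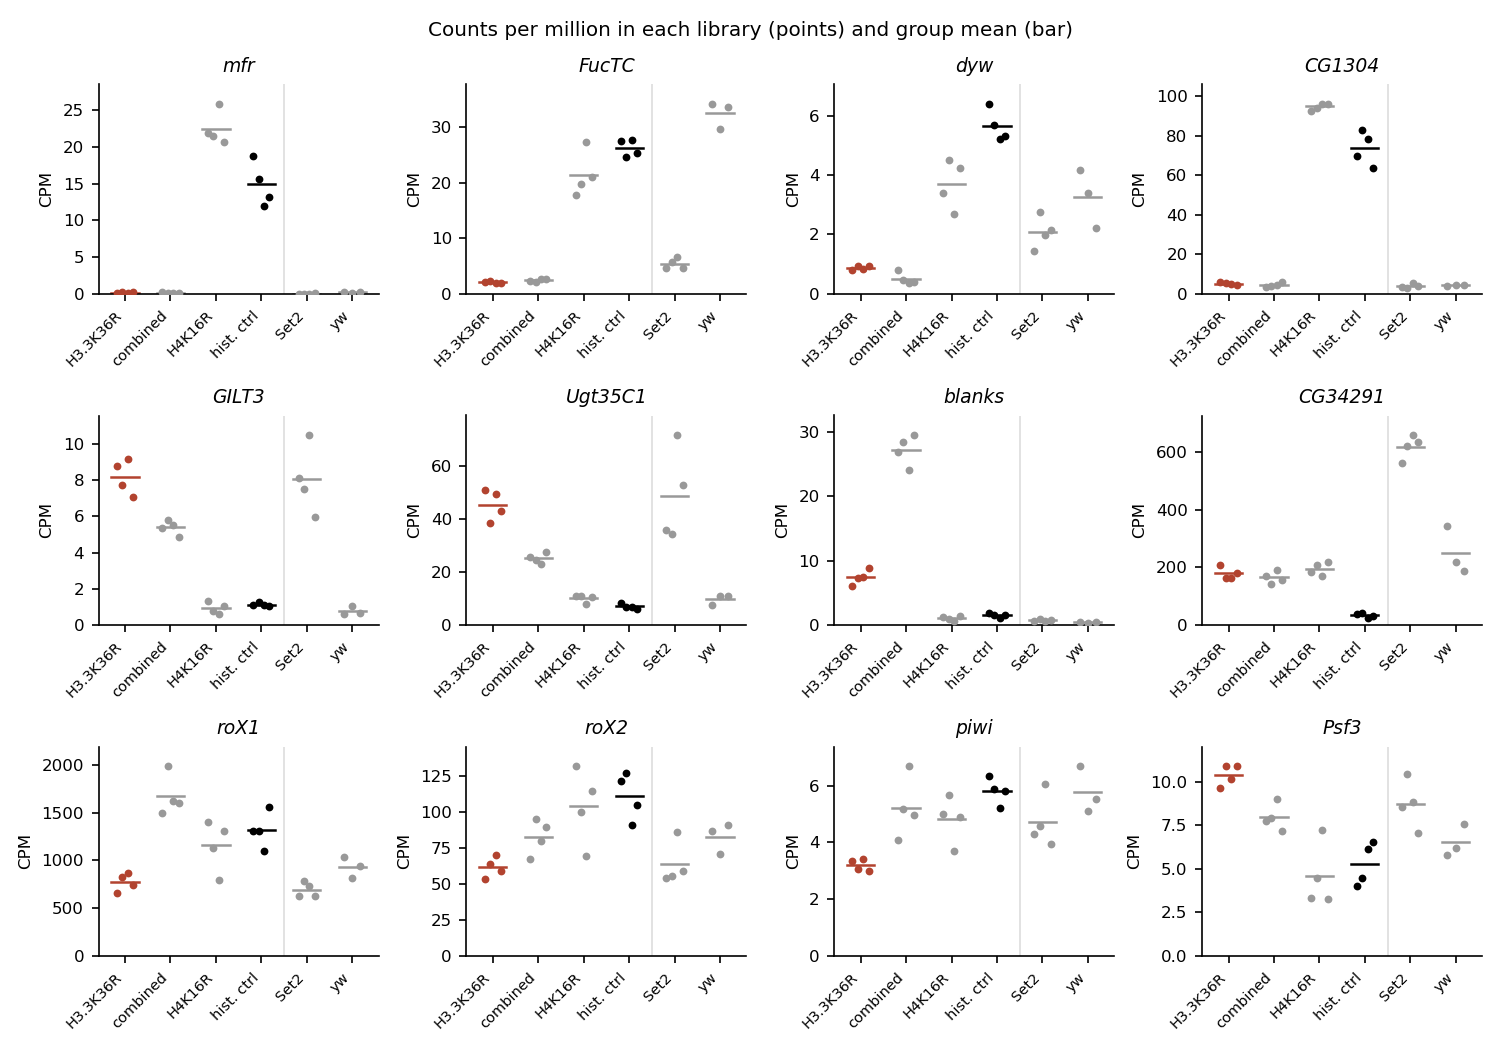
CPM in each library (points) with the group mean (bar) for 12 genes; H3.3K36R is red, the histone control black and the other genotypes grey, with Set2 mutants and yw right of the line. For mfr, FucTC and CG1304 all 4 H3.3K36R libraries lie far below the 4 control libraries, and for GILT3, Ugt35C1 and blanks far above them; yw lies with the control for FucTC and with H3.3K36R for mfr and CG1304.

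Genes of the cuticle and its pigmentation were also among the falls. ple, the tyrosine hydroxylase that starts both dopamine synthesis and cuticle tanning, had 48.5, 50.5, 44.1 and 47.1 CPM in H3.3K36R, against 61.3, 85.2, 72.4 and 77.5 CPM in the control (log2 fold change -0.64 ± 0.12, adjusted p = 0.00485). e (ebony), which joins beta-alanine to dopamine in the same tanning pathway, had 5.6, 5.43, 4.86 and 3.9 CPM in H3.3K36R, against 9.14, 13.2, 9.58 and 7.77 CPM in the control (-1.01 ± 0.16, adjusted p = 0.00105). For both genes the groups did not overlap. In the list of Lcp, Tweedle and related cuticle protein genes edgeR called 3 of 50, all lower, where 1.02% of all genes were: TwdlL, Edg91 and Ccp84Ag, with log2 fold changes of -2.02, -1.33 and -1.27. TwdlL had 3.44, 4.5, 3.89 and 2.57 CPM in H3.3K36R, against 19.3, 8.52, 13.8 and 16.8 CPM in the control. It averaged 3.44 CPM in H4K16R larvae and 3.66 CPM in yw as well, so the control stood apart from them. The yw means of e, Edg91 and Ccp84Ag were 5.47, 3.64 and 0.903 CPM, also below the control. Their means were 4.95, 8.9 and 2.93 CPM in H3.3K36R and 9.93, 22.5 and 7.07 CPM in the control. H4K16R larvae had 12.1, 26.4 and 9.63 CPM of them, above the control. The median log2 fold change of the 50 genes was 0.14 and lay between -0.17 and 0.16 in the alternatives, so it gives no direction. Of 66 tested Cpr cuticle genes edgeR called 1, Cpr12A, higher, a share near the 1.96% of all genes; it lost its call in 6 of 17 alternatives, and DESeq2 called 7, 5 higher and 2 lower. None of the 19 tested Osiris genes, which the cuticle-forming epidermis expresses in short pulses, was called by edgeR or DESeq2 or reached an unadjusted p under 0.05. Osi6, Osi7 and Osi15 were among the genes with the largest loadings on the axis of spread within genotypes. With the axis score as a covariate 300 genes were called, 236 of them shared with the 282. ple, e, TwdlL and Edg91 kept their calls in all 17 alternatives, and Ccp84Ag lost its call in 2.

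Digestive genes fell in a few cases. Of 31 tested midgut protease genes 2 were lower, Ser6, described above, and Jon74E, a gut serine protease, where 1.02% of all genes were, and the list's median was -0.21, between -0.39 and -0.13 in the alternatives. Jon74E had 6.4, 5.02, 7.76 and 7.23 CPM in H3.3K36R, against 9.61, 12.2, 12.2 and 9.07 CPM in the control (log2 fold change -0.71 ± 0.16, adjusted p = 0.023), and it lost its call without control replicate 2. Of 38 tested genes for amylases, maltases, lysozymes, phosphatases and a lipase, 1 was lower, mag, and 1 higher, LysP, where 1.02% and 0.947% of all genes were. mag (magro), the lipase, digests dietary fat in the gut and had 8.9, 10.4, 11 and 14.5 CPM in H3.3K36R, against 27.2, 35.2, 38.1 and 33.2 CPM in the control (-1.58 ± 0.26, adjusted p = 0.00135). Combined mutants had 30.3 CPM of mag and yw 13 CPM. LysP, a lysozyme gene, had a log2 fold change of 1.99 and lost its call in 5 of 17 alternatives.

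Called genes lay near one another more often than tested genes in general. Of the 281 called genes with a position, 85 (30.2%) had another called gene within 20 kb, against 14.1% of all tested genes. That share is not matched by chromosome arm, and the arms differed in the share of genes called, as given below. For 67 (23.8%) such a neighbour changed in the same direction, a share that was not computed over all tested genes. Some neighbours are overlapping genes whose reads may be shared. These include FucTC with lncRNA:CR45010, Cyp6t1 with lncRNA:CR45082 and CG6912 with asRNA:CR45600. The distance was chosen after the values were seen. Beside the 5 neighbouring UDP-glucuronosyltransferase genes, the runs, which were also picked out afterwards, included 4 genes of 3L between 3184404 and 3189747, CG42494, CG32284, CG14957 and CG42525, all lower. CG14957 had 14.9, 11.9, 12.2 and 14 CPM in H3.3K36R, against 21.4, 28.5, 29.3 and 37.2 CPM in the control. On the X, lncRNA:CR45082, Cyp6t1 and lncRNA:CR46472, between 21496526 and 21527105, were all higher. lncRNA:CR46472 had 5.69, 6.6, 5.52 and 7.91 CPM in H3.3K36R, against 0.938, 0.896, 1.02 and 0.697 CPM in the control. It averaged 18.1 CPM in combined mutants and 1.07 CPM in H4K16R larvae, and 1.23 CPM in Set2 mutants against 4.14 CPM in yw. On 3R, the prolyl hydroxylase genes PH4alphaSG2 and PH4alphaSG1, expressed in the salivary gland, and the adjacent CG15539 were all lower, but PH4alphaSG1 lost its call in 6 of 17 alternatives.

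The share of genes called was not even over the chromosome arms. It was 3.78% on the X (37 higher and 48 lower of 2249), 2.75% on 3R and 2.01% on 3L, against 0.858% on 2L and 0.578% on 2R. Among the X, the second and the third chromosome, the second had the lowest share in each of the 18 analyses, the one reported and its 17 alternatives. The level of the shares moved widely between the analyses. In Set2 mutants against yw, where 44.5% of all genes were called, the shares on these arms lay between 42.4% and 47.3%. The same control libraries also serve the 2 other histone genotypes: against them combined mutants had 37.8% to 42.3% called on these arms (39.2% of all genes), and H4K16R larvae 5.29% on the X and 0.312% to 0.809% on the others (1.31% of all genes). Which chromosomes each stock took from a common source is not given in the labels, and an effect of the substitution and one of stock background on particular chromosomes cannot be told apart here.

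The index of the whole X did not pass the test. This index, the mean log2 CPM of its 2249 tested genes minus that of genes on 2L, 2R, 3L and 3R (prior count 2), was 0.384 ± 0.020 in H3.3K36R libraries and 0.356 ± 0.011 in control libraries (SD, n = 4 each). The difference was 0.03 ± 0.01 (SE; two-sided exact permutation test, p = 0.0857, adjusted over 7 arms p = 0.3), and the libraries of the groups overlapped. It became -0.0056 when medians over genes replaced means. Set against all other arms, the 111 tested genes of chromosome 4 had an index of 1.55 ± 0.10 in H3.3K36R and 1.70 ± 0.07 in the control, a difference of -0.15 ± 0.06 (exact permutation p = 0.0857, adjusted p = 0.3). With 4 libraries against 4 the smallest p this test can give is 0.0286, and an arm that reached it alone among 7 would have an adjusted p of 0.2, so this design cannot pass 0.05 for a single arm. Split by expression, the index of the 845 X genes of the highest tercile, set against autosomal genes of that tercile, was 0.028 ± 0.010 in H3.3K36R and -0.017 ± 0.012 in the control (SD, n = 4 each). The libraries did not overlap, and the difference of 0.045 reached the smallest p (exact permutation p = 0.0286, adjusted over 3 terciles p = 0.0857). The difference was 0.00084 for the middle tercile (exact permutation p = 0.971) and 0.03 for the lowest (exact permutation p = 0.457). A single tercile at the smallest p cannot pass 0.05 after adjustment either. Chromosome 4 had 2 calls, both non-coding and both lower, asRNA:CR44029 and lncRNA:CR44440. The first overlaps unc-13 on the other strand, which averaged 520 CPM in H3.3K36R and 667 CPM in the control and was not called. How the counting divided the reads of that pair is uncertain. lncRNA:CR44440 lost its call with the 8 libraries alone.

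**Figure D3:**
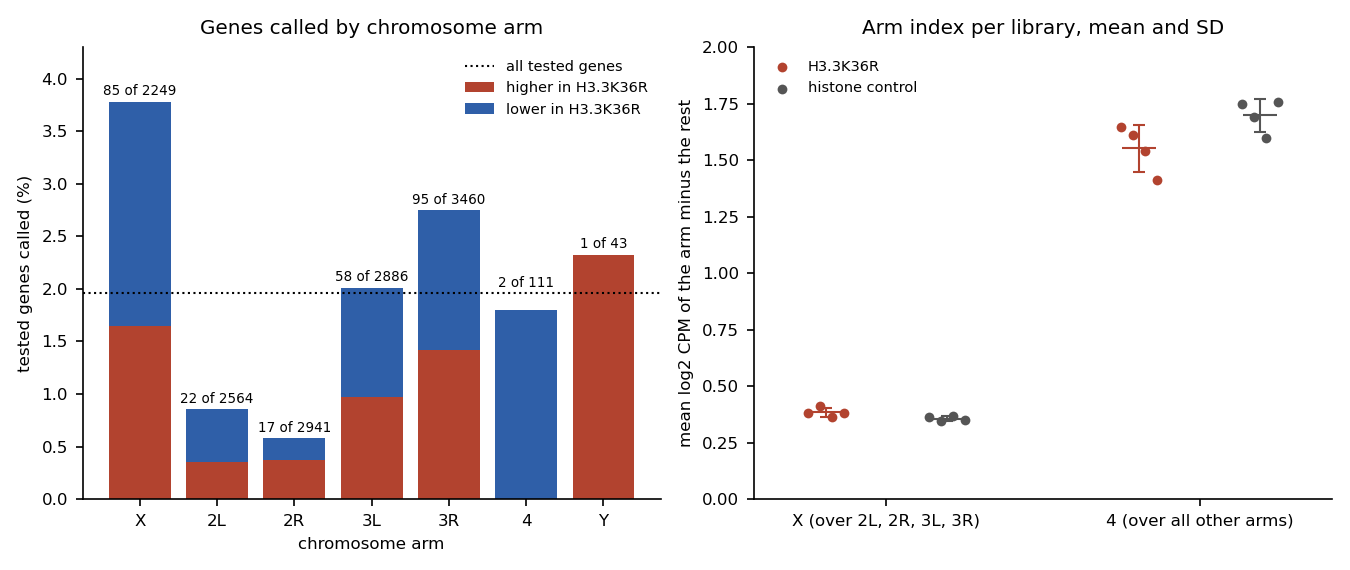
Left, percentage of tested genes called on each chromosome arm, with higher (red) and lower (blue) calls stacked and the share over all tested genes dotted; X, 3R and 3L have 3.78%, 2.75% and 2.01% and 2L and 2R 0.858% and 0.578%. Right, index of the X and of chromosome 4 in each library (points) with mean and SD, H3.3K36R in red and histone control in grey; the groups overlap for both.

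Within dosage compensation the roX RNAs were the members that changed. roX1 (X, 3857230 to 3862697, minus strand) had 657, 826, 863 and 745 CPM in H3.3K36R, against 1309, 1304, 1099 and 1556 CPM in the control, with no overlap (log2 fold change -0.77 ± 0.15, adjusted p = 0.00568). roX2 (X, 11579065 to 11580432, plus strand) had 53.5, 64.2, 70 and 59.1 CPM in H3.3K36R, against 122, 127, 90.8 and 105 CPM in the control, also with no overlap (-0.85 ± 0.18, adjusted p = 0.0104). Both calls held in all 17 alternatives. The other 9 genes of the list, msl-1, msl-2, msl-3, mle, mof, Clamp, JIL-1, Sxl and Unr, were not called, with log2 fold changes between -0.21 (msl-2, the male-limited subunit) and 0.09. roX1 averaged 1678 CPM in combined mutants and 1157 CPM in H4K16R larvae, and 693 CPM in Set2 mutants against 930 CPM in yw. The yw libraries, at 819 to 1031 CPM of roX1, lay below every control library. roX2 had 67.3 to 95.4 CPM in combined libraries and 69.4 to 133 CPM in H4K16R libraries. It had 54.1 to 86.6 CPM in Set2 libraries and 71 to 91.3 CPM in yw libraries. Directly against combined mutants roX1 was lower in H3.3K36R, by 1.12 on the log2 scale (adjusted p = 2.78e-06), while roX2 was not called in that comparison (log2 fold change -0.43, adjusted p = 0.0504). roX RNAs are made in males, and the pools held both sexes. None of the 17 tested sex determination and yolk genes was called by edgeR or DESeq2, with 4 at an unadjusted p under 0.05, 2 each way, and of 7 tested Y-linked genes 1 was, WDY, which averaged 0.297 CPM in H3.3K36R and 0.0172 CPM in the control (higher, adjusted p = 0.0101; the call was lost with the 8 libraries alone). The part of the share of male larvae in the roX values was not tested. The gene ec overlaps roX1 on the other strand and was not called, at 131 CPM in H3.3K36R and 124 CPM in the control.

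The counts do not check the substitution itself, because reads of an altered codon are counted with the gene. His3.3A, one of the genes for H3.3, averaged 42.1 ± 5.5 CPM in H3.3K36R and 34.6 ± 5.1 CPM in the control (SD, n = 4 each), and His3.3B averaged 660 ± 38 CPM in H3.3K36R and 635 ± 20 CPM in the control. Neither was called (edgeR adjusted p = 0.175 and 0.681). None of the 10 tested writers, erasers and readers of lysine 36 methylation was called by edgeR, with 3 at an unadjusted p under 0.05 and 1 called lower by DESeq2. The Set2 gene averaged 75.8 CPM in H3.3K36R and 73.3 CPM in the control, and NSD, a dimethylating enzyme, averaged 53.5 CPM in H3.3K36R and 48.2 CPM in the control; the demethylase gene Kdm4B came closest to the threshold (log2 fold change -0.42 ± 0.12, adjusted p = 0.0722). Of 11 genes for H3.3 chaperones and histone assembly, cal1, which loads the centromeric H3 variant, was lower, at 28.9, 28.4, 21.5 and 27.5 CPM in H3.3K36R, against 41.2, 38.2, 34.6 and 40.4 CPM in the control (-0.54 ± 0.10, adjusted p = 0.00268). The H3.3 chaperone genes Hira, yem, XNP and Daxx had no call. None of 8 Hox, 20 Polycomb group, 16 heterochromatin or 19 elongation and FACT genes was called by edgeR; 1, 3, 3 and 6 of them reached an unadjusted p under 0.05, and DESeq2 called 1 heterochromatin gene.

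Germ cell genes included 3 calls of 24 tested, all lower, where 1.02% of all genes were. piwi, which loads piRNAs in the germ line and its supporting cells, had 3.34, 3.07, 3.43 and 3 CPM in H3.3K36R, against 6.34, 5.88, 5.22 and 5.83 CPM in the control (log2 fold change -0.86 ± 0.16, adjusted p = 0.00449). vas, the germ-line RNA helicase, had 2.21, 2.33, 2.69 and 2.32 CPM in H3.3K36R, against 4.2, 3.33, 3.94 and 4.09 CPM in the control (-0.70 ± 0.17, adjusted p = 0.0378). bgcn, a partner of the differentiation factor bam, averaged 0.919 CPM in H3.3K36R and 1.85 CPM in the control (-1.01 ± 0.24, adjusted p = 0.0294). Over the 24 tested genes of the piRNA and germ cell list the median log2 fold change was -0.40, against 0.03 for all genes, and 19 of the 24 were below 0. Only the piwi call held in each alternative; vas lost its call in 4 of 17 and bgcn in 7. Directly against combined mutants, 13 of the 24 were lower in H3.3K36R and 1 higher, where the background is 19.7% lower and 28% higher, and combined mutants had 5.23 CPM of piwi and 3.87 CPM of vas.

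Markers of other cell types were present, and most of their lists gave few calls. Of 14 tested tracheal and salivary gland genes, Sgs5 was higher and PH4alphaSG2 and PH4alphaSG1 lower, with a median of -0.05. Of all tested genes 0.947% were higher and 1.02% lower. Of 19 tested testis-expressed genes 1 was higher. Their median was 0.22, between -0.12 and 0.32 in the alternatives. All listed neuronal, glial, muscle, fat body and hemocyte genes, and 31 of 32 midgut protease genes, passed the count filter. Of 24 hemocyte and basement membrane genes, Hml and He, both made by blood cells, were higher, where 0.947% of all genes were. Of the 24 genes 13 were above and 11 below 0, with a median of 0.03, which is also that of all genes, and 1 other member was lower at an unadjusted p under 0.05. Hml (hemolectin) had 295, 286, 287 and 257 CPM in H3.3K36R, against 206, 185, 195 and 197 CPM in the control (log2 fold change 0.52 ± 0.10, adjusted p = 0.00568), and He rose by 0.60 but lost its call in 8 alternatives. All 30 tested neuronal genes had log2 fold changes below 0, the lowest at -0.69, with a median of -0.17, and 1 was called, ple, which epidermal cells also use. No gene was called by edgeR or DESeq2 among 15 glial, 26 muscle, 30 neuropeptide, 23 fat body or 19 Malpighian tubule, oenocyte and nephrocyte genes, of which 1, 1, 3, 4 and 1 had an unadjusted p under 0.05. The 30 tested antimicrobial peptide genes had a median of -0.71, between -1.22 and -0.27 in the alternatives, and no call by edgeR, with 4 lower at an unadjusted p under 0.05 and 1 called lower by DESeq2. Listericin, an antibacterial protein gene outside that list, was lower (-1.97 ± 0.51, adjusted p = 0.0498) and lost its call in 9 of 17 alternatives.

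Several lists of growth genes leaned upward without passing the test gene by gene. All 32 tested proteasome subunit genes had log2 fold changes above 0, between 0.25 and 0.76, with a median of 0.49, and none was called, the smallest adjusted p being 0.0627 (edgeR). At an unadjusted p under 0.05 there were 30 of the 32, and DESeq2 called 3, all higher. All 29 tested DNA replication genes were above 0 with a median of 0.46, and Psf3, with the limit given above, was the 1 called. The median was 0.33 for 72 mitochondrial ribosomal protein genes, 71 of them above 0, and 0.38 for 33 aminoacyl tRNA synthetase genes, 32 of them above 0, with no call in either list. Of these, 46 and 23 genes were higher at an unadjusted p under 0.05, and DESeq2 called 4 of each list, all higher. For 25 nucleolar and ribosome biogenesis genes the median was 0.34 with no call by edgeR or DESeq2 and 7 genes at an unadjusted p under 0.05, and for 77 nuclear genes of the respiratory chain it was 0.19 with ND-MLRQ called. Cytosolic ribosomal protein genes had a median of 0.05 over 81 genes, and 2 of them, the minor copies RpS14b and RpS19b, were lower, a share near the 1.96% of all genes; RpS19b lost its call in 6 of 17 alternatives. For comparison, 2914 of all 14365 genes had an unadjusted p under 0.05. Apart from that of the cytosolic ribosomal proteins, which reached -0.03, these list medians stayed positive in every alternative, from 0.27 to 0.54 for the proteasome and from 0.26 to 0.58 for DNA replication. The genes of a list were measured in the same 8 pools, so the number above 0 is not a count of independent observations. List members Rpn2, LysRS, GluProRS and mod were highest in H3.3K36R replicates 3 and 4 and in control replicate 3. Those libraries scored lowest in their genotype on the axis of spread within genotypes. Non1 was lowest in them, and Psf3 did not follow them. The alternatives included the axis score as a covariate, and its part in the medians was not otherwise tested.

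**Figure D4:**
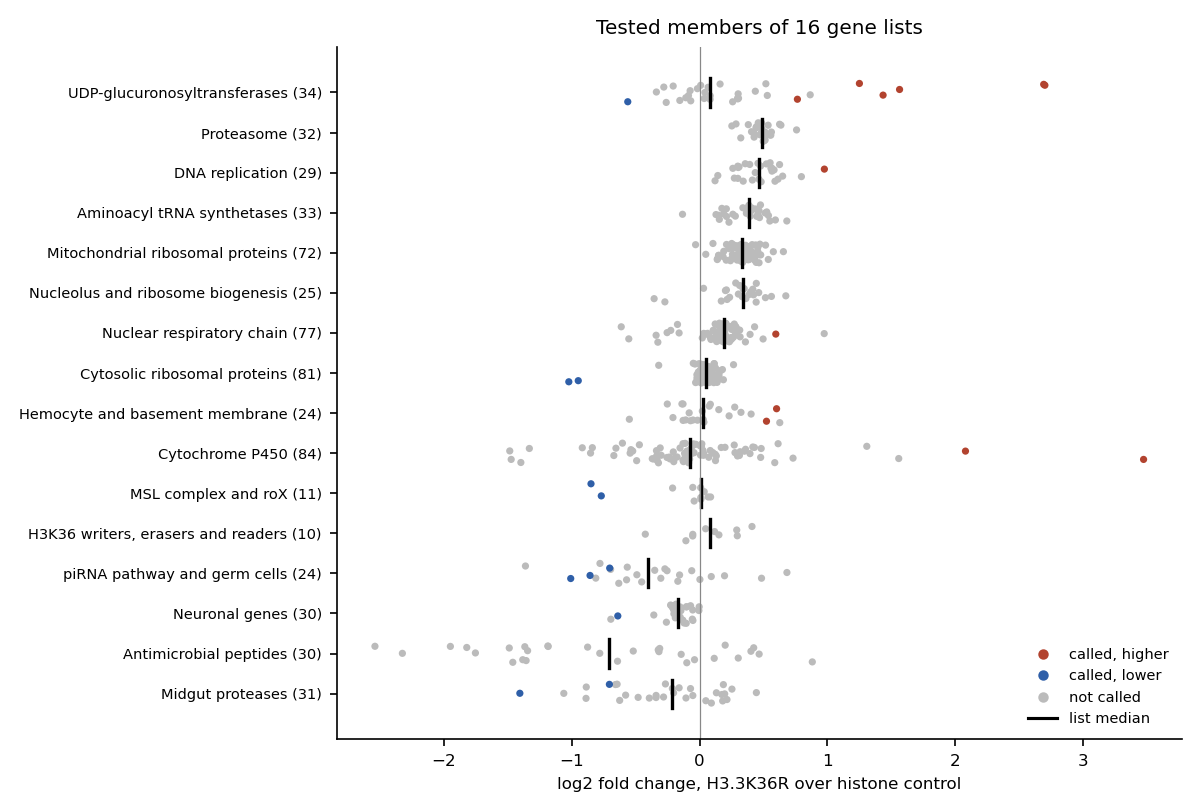
Log2 fold change of H3.3K36R over histone control for each tested member of 16 gene lists (points; number tested in brackets) with the list median (black bar); red and blue points are members called higher and lower. UDP-glucuronosyltransferases hold 6 called higher genes, the growth lists lie right of 0 with hardly a call, and the neuronal list lies left of 0 with ple called.

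Set directly against the combined mutant, H3.3K36R larvae differed at 6858 genes, 47.7% of those tested, 4023 higher and 2835 lower in H3.3K36R. The growth lists differed almost in full. In H3.3K36R, 71 of 72 mitochondrial ribosomal protein genes, 68 of 77 respiratory chain genes, 32 of 32 proteasome genes, 33 of 33 aminoacyl tRNA synthetase genes and 25 of 29 DNA replication genes were higher than in combined mutants, where 28% of all genes were. Against the control, combined mutants were lower for 71, 69, 6, 30 and 24 genes of these lists, in that order. Their median log2 fold changes against the control were -0.98, -0.88, -0.37, -0.71 and -1.22. The same H3.3K36R libraries enter the comparison with combined mutants and the one with the control. How many of the 282 genes the comparison with combined mutants calls is therefore not read against other genes. It called 94 of the 136 higher and 94 of the 146 lower genes. mfr, FucTC, CG1304 and Pig1 were not called between these genotypes (adjusted p = 0.887, 0.178, 0.226 and 0.852), with log2 differences from -0.22 to 0.26. Larger differences were seen for others. CG10918, an X gene, had 31.9, 31.2, 20.4 and 18.8 CPM in H3.3K36R, against 55.3, 69.1, 83.5 and 76.1 CPM in the control, while combined mutants averaged 237 CPM (log2 difference -3.21, adjusted p = 1.48e-09). Arc42 had 22.4, 23.1, 24.3 and 26.1 CPM in H3.3K36R, against 8.9, 11.2, 13.5 and 11.3 CPM in the control, and combined mutants averaged 5.58 CPM (log2 difference 2.10, adjusted p = 2.48e-09). Sirup, an assembly factor of succinate dehydrogenase, had 63.3, 47.4, 39.8 and 31.9 CPM in H3.3K36R, against 119, 105, 94.6 and 107 CPM in the control and 105 CPM in combined mutants. The yw larvae averaged 27.6 CPM of Arc42 and 46.3 CPM of Sirup, so for both genes yw lay with H3.3K36R.

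Set2 mutants and their yw control share no library with the comparison, so the genes it called could be looked up there. Both were tested in the same fit with a shared spread for each gene, so a gene of low spread is easier to call in both. The shares over all tested genes given here are not matched for this. The Set2 gene itself averaged 6.51 CPM in Set2 mutants and 77.3 CPM in yw (log2 fold change -3.57). Of the 136 genes higher in H3.3K36R, 84 (61.8%) were also called higher in Set2 mutants against yw, where 23.4% of all tested genes were, and 13 (9.56%) were called lower. Of the 146 genes lower in H3.3K36R, 81 (55.5%) were called lower in Set2 mutants, against 21.1% of all tested genes, and 9 (6.16%) higher. Set2 libraries also scored below yw libraries on the axis of spread within genotypes. The part of that axis in these shared calls was not tested. The 165 genes called the same way are 58.5% of the H3.3K36R calls and 2.58% of the 6399 Set2 calls. FucTC, CG32572, Pig1, GILT3, Ugt35C1 and Ugt302K1 belong to them, with log2 fold changes in Set2 mutants of -2.58, -3.83, -1.22, 3.37, 2.32 and 3.2. The test of the difference between both effects called 1493 genes (10.4%), 1020 with the H3.3K36R effect above the Set2 effect (7.1%) and 473 below it (3.29%). That is 68.3% above, against 58.0% above with scaling factors from autosomal genes, 52.5% with the gene length trend removed, 50.8% without control replicate 3 and 48.9% without H3.3K36R replicate 1, so the split gives no stable direction. Among the genes called in H3.3K36R it called 32 of the higher (23.5%) and 49 of the lower (33.6%). Hml differed in that test (adjusted p = 1.51e-05): it was higher in H3.3K36R and lower in Set2 mutants, at 105 CPM against 170 CPM in yw. Ugt35E2 differed as well (adjusted p = 0.000753), with a log2 fold change of 1.44 in H3.3K36R and -0.75 in Set2 mutants. RpS14b, CG1304 and snoRNA:Psi18S-1854a fell in H3.3K36R and were not called in Set2 mutants, and the difference of the effects was called for each (adjusted p = 4.55e-06, 5.48e-09 and 2.32e-07). CG1304 was already low in yw, at a mean of 4.39 CPM against 73.6 CPM in the histone control. RpS14b averaged 182 CPM in yw and 287 CPM in the histone control. The snoRNA overlapped, at 1.87 to 3.23 CPM in yw libraries and 2.14 to 5.28 CPM in control libraries. The part of these yw levels in the called differences was not tested. Across all 14365 genes Pearson's r between the effects was 0.217, and over the 282 called genes 0.310; genes are not independent replicates, and the libraries of each contrast are shared by all of its genes.

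**Figure D5:**
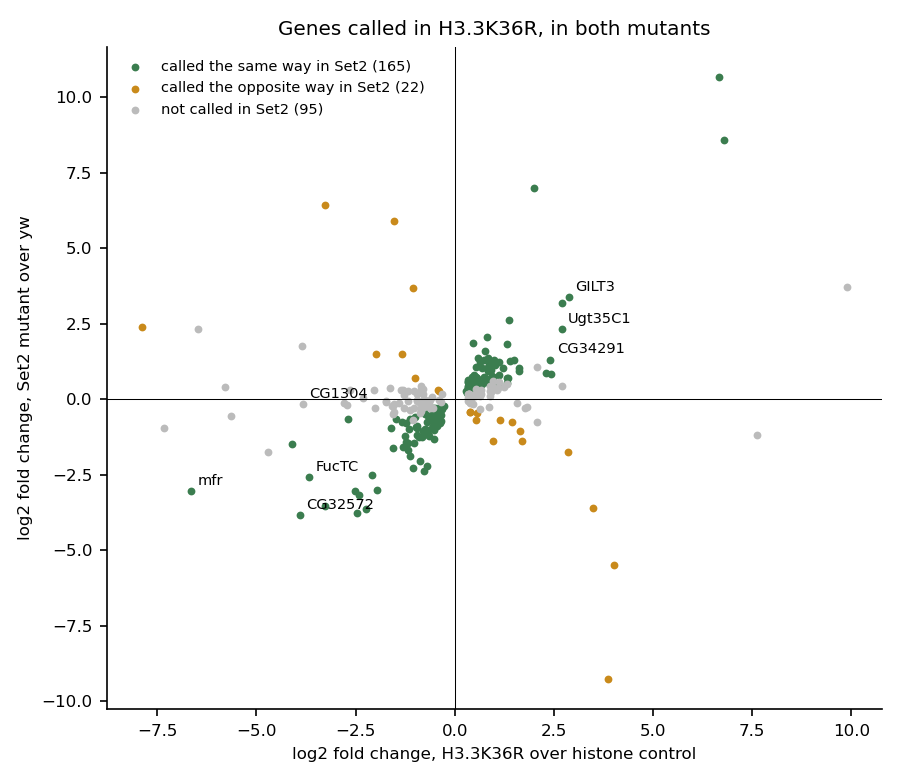
The 282 genes called in H3.3K36R, with the log2 fold change of H3.3K36R over histone control on the horizontal axis and of Set2 mutants over yw on the vertical axis. Green points (165) were called the same way in Set2 mutants, orange points (22) the opposite way and grey points (95) were not called there; fitted values beyond about 5 belong to genes with almost no counts in one group.

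The levels in the remaining stocks describe which side of each difference stood apart. The control and H3.3K36R libraries chose the called genes, so these counts are a description. The shares over all tested genes include genes without a called difference and are not a matched baseline. The H4K16R mean was nearer, on the scale of log2(CPM + 0.5), to the control mean than to the H3.3K36R mean for 233 of the 282 called genes (82.6%), against 57.3% of all tested genes. The mean of combined mutants was nearer to the control for 149 (52.8%), against 64.6% of all tested genes. The yw mean was nearer to the control for 153 (54.3%), against 53.2% of all tested genes, a share like that of genes in general; mfr, CG1304, Ser6 and CG34291 are called genes whose yw level lay with H3.3K36R.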

How the data were processed

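Total RNA from pools of whole L1 larvae was made into libraries with the Nugen Ovation Universal Drosophila kit, per the labels' protocols. The deposited values are raw read counts per gene, which the authors made with STAR 2.7.2a and Subread 2.0.3, per the submitters' processing notes; for the counting step, the sources used here give no build, annotation or strand setting. The series holds 23 libraries, since the design text drops yw replicate 1. Symbols, gene types and coordinates were looked up by gene identifier in the BDGP6.54 annotation, which held 17527 of 17606 identifiers (99.55%).

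Counts were filtered (filterByExpr, minimum count 10), scaled with TMM and tested with edgeR 4.0.16 in R 4.3.3 (robust quasi-likelihood, 1 mean per genotype over all 23 libraries, 17 residual degrees of freedom), two-sided, with Benjamini-Hochberg adjustment over all 14365 genes and calls at adjusted p under 0.05. The script was tested on simulated counts. Combined against control and H4K16R against control share the control libraries with the comparison reported, so their values are given side by side with no overlap. Chromosome arm indices were compared by exact permutation over libraries. A library's counts come from PCR-amplified reads, so depth covers counting error only.

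Genes were named by rule: among called genes with a proper symbol, at least 5 CPM in a group and no overlap between groups, the 15 largest rises and 15 largest falls; the 10 smallest adjusted p; up to 4 called members of each of 55 lists, or the 2 most abundant where none was called; all members of the H3.3, lysine 36 and MSL lists; and 5 per arm (X and 4) and per further contrast. Members of neighbouring runs and the nearly silent genes were picked after their values were seen. The comparison and the lists were chosen with earlier results of these data known. Alternatives were DESeq2 1.42.0, other scalings and filters, a replicate block, an axis covariate, the 8 libraries alone and leaving out each library; limma 3.58.1 underlies edgeR.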

Additional observations from a re-analysis of the deposited data

Results flagged for a closer look

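There were 318 checks, each of 1 gene or 1 chromosome arm index in the 4 libraries of 1 genotype. In 11 of them, all of genes, a library's gap to the nearest of the other 3, divided by the whole range, was above 0.829. Chance gives about 1 such library in 20 checks. In the control, replicate 3 had 93.4 CPM of Osi6, against 1.12 to 2.91 CPM in the other control libraries, and 73.9 CPM of Osi7, against 3.66 to 3.91 CPM; both belong to the Osiris genes of the cuticle-forming epidermis. The same library had 422 CPM of PGRP-SC2, a peptidoglycan-degrading enzyme gene, against 364 to 372 CPM. Control replicate 2 had 106 CPM of the H3 lysine 9 methyltransferase gene G9a, against 113 to 114 CPM, control replicate 1 had 1853 CPM of the proton pump gene Vha55, against 2011 to 2031 CPM, and control replicate 4 had 59.0 CPM of the MSL helicase gene mle, against 53.5 to 54.3 CPM.

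Among the H3.3K36R libraries, replicate 1 had 51.8 CPM of mle, against 59.4 to 60.5 CPM in the others, and 67.0 CPM of Clamp, which guides the MSL complex, against 62.4 to 62.7 CPM. Replicate 3 had 1516 CPM of the enolase gene Eno, against 1328 to 1359 CPM. Replicate 2 had 0.0364 CPM of the germ-line linker histone gene BigH1, against 0.156 to 0.171 CPM. Replicate 4 had 0.00745 CPM of Mgat4b, against 0 CPM in the others. This glycosyltransferase gene was called lower (edgeR adjusted p = 0.00513), with 0.111 to 0.167 CPM in the control, and DESeq2 did not call it. Of these genes only Mgat4b was called.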

How the results depend on the processing

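The 282 calls became 854 with a replicate block (601 higher and 253 lower, all 282 among them) and 714 with DESeq2 (340 higher and 374 lower, 279 of the 282 among them). The replicate numbers do not establish a pairing: same-numbered libraries had deviations correlated at 0.268, -0.0036, 0.297 and -0.037, so only replicates 1 and 3 correlated best with their own number. Leaving out single libraries gave 156 to 458 calls: 458, 168 and 169 without H3.3K36R replicates 1, 3 and 4, and 156 and 184 without control replicates 1 and 2. The count for the H3.3K36R effect minus the Set2 effect ran over 732 to 1563 in the same way, with 807 and 862 without H3.3K36R replicates 1 and 2, 847 without control replicate 3, 965 without Set2 replicate 1 and 732 without yw replicate 4. The index of the X was -0.0056 with medians over genes, the reverse of its sign with means. The causes were not tested. The other settings left these counts within 1.5 times their value, and the count against combined mutants stayed within 5898 to 7456 in every setting. With the 8 libraries alone 291 genes were called, 198 of them among the 282. Of 70 named called genes 47 kept their call in all 17 alternatives, 23 lost it in at least 1 and none reversed. Depth limits only the genes with almost no counts in one group, where odd and even counts were also unequal.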
